A study of Mus musculus with 6 samples.

Results

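The genes described here are 9 mouse genes of early neural development: Sox1, Pax6, Nes, Neurod1, Foxn4, Map2, Sox4, Sox11 and Dcx. They were taken by symbol from a table of read counts for 27179 gene identifiers, and all 9 were found in it. The 9 were chosen with earlier results of these data known, so their ranks and shares are not those of an unbiased pick. The counts come from poly(A)-selected RNA of mouse embryonic stem cells of the ES-E14TG2a background, grown on gelatin in medium with leukemia inhibitory factor and the inhibitors CHIR99021 and PD0325901 (2i). Both groups carried FLAG-tagged Trim71, the RNA-binding protein whose R783H change is linked to hydrocephalus, either without that change (WT, 3 libraries) or with it (R783H, 3 libraries). The labels give no genotype without the tag. What separates replicates A, B and C (clone, culture or preparation) is not stated, so each p-value measures the spread between these libraries, which may be technical. The comparison asks how the RNA of these genes differs between the R783H and the WT cells.

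In the embryo, neural progenitors form first and neurons later. Progenitors are marked by the transcription factors Sox1 and Pax6 and by nestin, the intermediate filament protein that Nes encodes. Foxn4, a forkhead factor of retinal and spinal cord progenitors, and Neurod1, a basic helix-loop-helix factor, act as cells commit to a neuronal fate. Sox4 and Sox11 are related SoxC factors that promote neuronal genes. Map2 and Dcx encode microtubule-binding proteins of neurons, Dcx mainly of young migrating ones. Embryonic stem cells held in 2i are not neural cells.

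The 9 genes did not move together. Sox1 and Map2 rose in R783H. Foxn4, Sox11 and Neurod1 fell, Foxn4 by far the most. Nes and Sox4 did not pass the test, Pax6 had too few reads to be tested, and Dcx had none. Thus 7 of the 9 genes could be tested and 5 of these 7 were called, 2 higher and 3 lower, at an adjusted p under 0.05 (edgeR, quasi-likelihood; Benjamini-Hochberg over every tested gene). Among all 14199 genes tested 64.5% were called by the same rule, 33.5% higher and 30.9% lower, so the share called among the 7 was near the background. Their median log2 fold change was -0.12, against 0.03 over all genes tested. In bulk RNA, fewer cells of a type and less RNA per cell cannot be told apart.

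The sequence before the start site is shown for Foxn4, which fell most, and for the related SoxC genes Sox11, which fell, and Sox4, which was not called. These are bases before the RefSeq start site on GRCm38.p6, from windows of 250 bases shortened where GENCODE M21 places an exon. They read 5′ to 3′ along the gene, with CG dinucleotides in capitals.

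Foxn4: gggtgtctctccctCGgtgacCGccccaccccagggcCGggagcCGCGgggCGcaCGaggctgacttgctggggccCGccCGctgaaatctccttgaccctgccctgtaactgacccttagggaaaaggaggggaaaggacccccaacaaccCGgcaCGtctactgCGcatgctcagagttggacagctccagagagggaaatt
Sox11: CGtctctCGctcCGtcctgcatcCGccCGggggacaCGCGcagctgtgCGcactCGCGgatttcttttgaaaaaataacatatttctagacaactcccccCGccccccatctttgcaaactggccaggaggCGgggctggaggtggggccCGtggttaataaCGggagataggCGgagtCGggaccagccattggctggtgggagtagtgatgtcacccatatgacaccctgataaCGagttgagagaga
Sox4: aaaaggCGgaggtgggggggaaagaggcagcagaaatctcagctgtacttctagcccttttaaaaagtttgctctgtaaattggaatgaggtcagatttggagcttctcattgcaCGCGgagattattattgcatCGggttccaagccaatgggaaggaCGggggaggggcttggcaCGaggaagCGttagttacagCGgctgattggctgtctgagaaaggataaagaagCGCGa

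The Foxn4 stretch is chr5:114273808-114274011, minus strand, with 12 CG in 204 bases. RefSeq's Foxn4 gene extends further upstream, to 114274418. The Sox11 stretch is chr12:27342719-27342968, minus strand, with 17 CG in 250 bases, and the Sox4 stretch is chr13:28953714-28953949, minus strand, with 10 CG in 236 bases. All 9 genes matched the RefSeq promoter table, with 11 windows. Over whole windows of 250 bases the CG count was 34 for Map2, 29 for Sox1, 22 for Neurod1, 17 for Foxn4 and for Sox11, 15 for Nes and for each of the 2 Pax6 windows, 11 for Sox4 and 3 for each of the 2 Dcx windows. The median was 15 over windows of genes tested here and 3 over those of genes in the table that had too few reads. Dcx, the gene without a read, thus had the fewest CG of the 9. Map2 and Sox1, which rose, had the most, followed by Neurod1, which fell. A link between CG count and the changes was not tested. Whole windows include bases that GENCODE places in exons. Cut at exons, the Sox1 stretch keeps 26 bases with 1 CG. The E-box CANNTG, which reads the same on both strands and is the class of site that Neurod1 binds, occurred 2 times in the Sox11 window, once in those of Sox4, Neurod1 and 1 of Pax6, and in no window of Sox1, Map2, Foxn4, Nes or Dcx. It occurs in 66.2% of all windows of this length and in 57.9% of those of tested genes. The letters AACAAT, a core that Sox proteins bind, searched on both strands, were in none of the 11 windows, against 9.42% of all windows and 5.09% of those of tested genes.

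Among the progenitor genes, Sox1 (Entrez 20664, chr8:12395519-12399555) rose. In the order A, B, C, which is used throughout, its counts were 410, 344 and 434 (R783H) and 173, 221 and 170 (WT). Scaled by library size and TMM factor to CPM (reads of the gene per 1000000 reads), these were 13.6, 12.1 and 14.6 against 8.56, 9.01 and 7.96. Every R783H library thus lay above every WT library. The mean rose from 8.51 ± 0.523 to 13.5 ± 1.27 CPM (SD, n = 3 each), a log2 fold change of 0.66 (SE 0.09; adjusted p = 1.01e-04, edgeR), or 1.58-fold with a 95% interval of 1.37 to 1.83. Its call held under all 17 alternatives run. RefSeq places Sox1 inside the span of Sox1ot, a non-coding gene whose own counts were not called different (log2 fold change 0.52, SE 0.34; adjusted p = 0.195, edgeR).

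Nes (Entrez 18008, chr3:87971093-87980451) was the most abundant of the 9 genes. Its values were 20.7, 21.9 and 22.3 CPM for R783H and 23.6, 23.0 and 24.0 CPM for WT. The groups did not overlap, but the gap was small, with means of 21.6 ± 0.863 and 23.5 ± 0.505 CPM (SD, n = 3 each). The log2 fold change of -0.12 (SE 0.06) was not called (adjusted p = 0.105, edgeR), with a 95% interval of -0.26 to 0.01. Fold changes in these libraries followed transcript length, with a Spearman's rho of 0.256 across 13067 genes, which are not independent replicates. With an offset for transcript length and GC content Nes changed by -0.30 and was called (adjusted p = 2.16e-04, edgeR), and without R783H B it was also called, at -0.15 (adjusted p = 0.0455, edgeR).

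Pax6 (Entrez 18508, chr2:105668896-105698410), which specifies forebrain and eye progenitors, was covered by 4, 0 and 2 reads (R783H) and 7, 9 and 3 reads (WT). It did not reach the minimum of counts for the test. In CPM it was at 0.133, 0 and 0.0675 against 0.346, 0.367 and 0.141. The groups did not overlap, though by little between R783H A and WT C. An exact two-sided permutation test over the libraries gave p = 0.10, the smallest value that 3 against 3 allows. When the filter on low counts was dropped, edgeR gave a log2 fold change of -1.997 (SE 0.74; adjusted p = 0.0291) on 6 against 19 counts in all. A count of 3, taken as the limit of detection, corresponds to 0.0998 to 0.148 CPM, so 2 of the 3 R783H libraries were under it and the WT C library was at it.

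**Figure D1:**
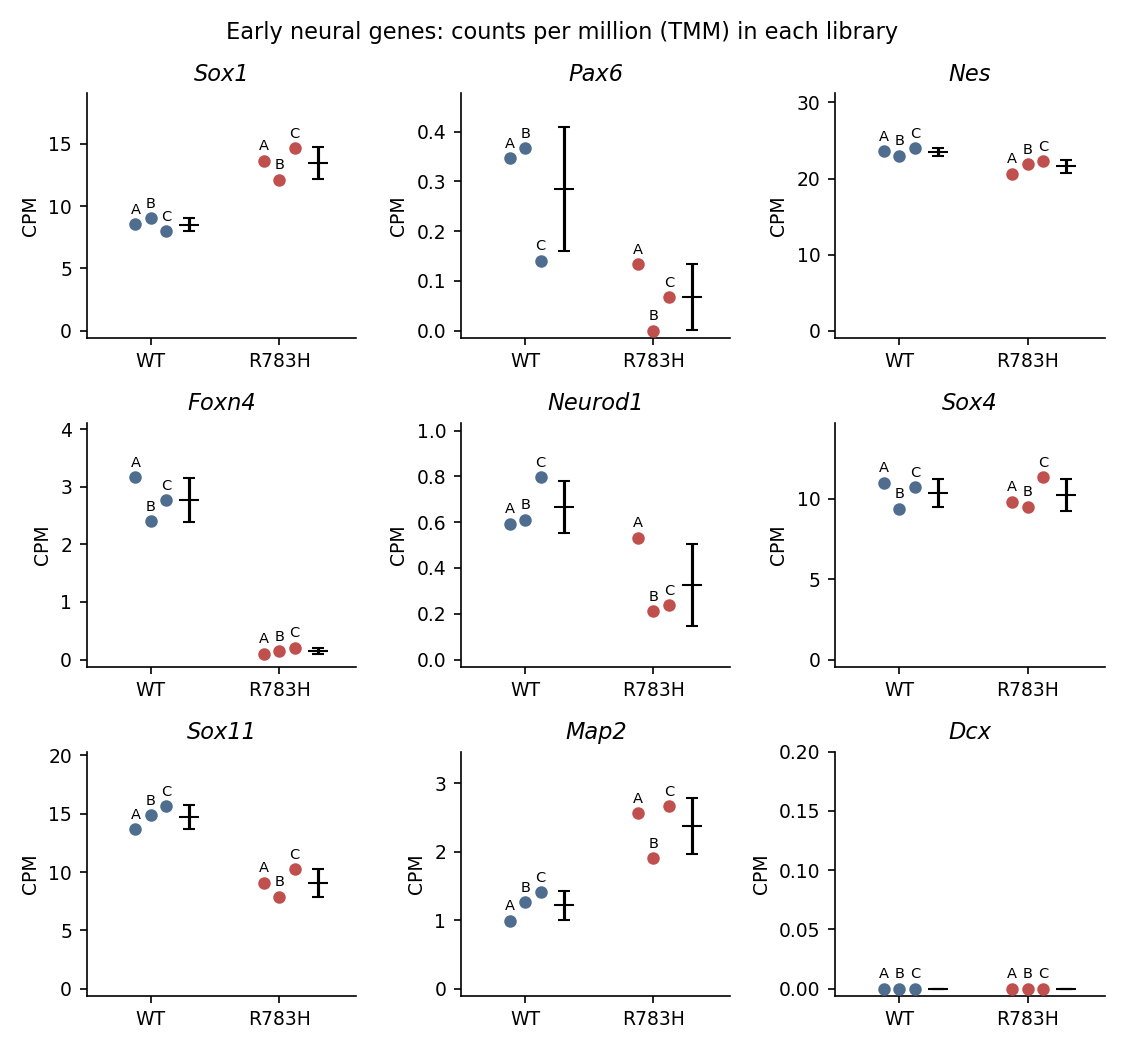
CPM after TMM scaling in each library (points, with replicate letters) and the mean with SD (black crosses with bars) of the 9 early neural genes in WT (blue) and R783H (red). Sox1 and Map2 stand higher in all 3 R783H libraries, Foxn4 and Sox11 lower, Sox4 overlaps and Dcx is at 0 in all 6.

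Among the genes of neuronal commitment, Foxn4 (Entrez 116810, chr5:114254164-114274418) changed more than the other members. Only 3, 4 and 6 reads came from the R783H libraries and 64, 59 and 59 from the WT ones. In CPM it went from 3.17, 2.40 and 2.76 in WT to 0.0998, 0.141 and 0.202 in R783H. The 2 groups were far apart, and each R783H library was close to the limit of detection. The mean fell from 2.78 ± 0.381 to 0.148 ± 0.0517 CPM (SD, n = 3 each), a log2 fold change of -4.18 (SE 0.28; adjusted p = 4.00e-07, edgeR), or 18.2-fold lower with a 95% interval of 11.9 to 27.8. Only 3 of the 14199 genes tested had a lower fold change. Across its 16 alternatives the value stayed between -4.48 and -3.75, always called.

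Tested genes on either side of Foxn4, looked at after its values were seen, had far smaller changes. Acacb, 3.40 kb away, was not called (log2 fold change -0.01, SE 0.06; adjusted p = 0.847, edgeR). Kctd10, 89.2 kb away on the other side, changed by -0.42 (SE 0.06; adjusted p = 7.14e-05, edgeR).

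Neurod1 (Entrez 18012, chr2:79452637-79456636) gave 16, 6 and 7 reads (R783H) and 12, 15 and 17 reads (WT). In CPM these were 0.532, 0.211 and 0.236 against 0.594, 0.611 and 0.796. The R783H A library lay close to the WT range, while B and C were well under it. The mean fell from 0.667 ± 0.112 to 0.327 ± 0.178 CPM (SD, n = 3 each), with a log2 fold change of -1.01 (SE 0.38; adjusted p = 0.0362, edgeR). The call rested on few reads. It was lost without any of the libraries R783H B, R783H C, WT A, WT B or WT C, with values from -1.08 to -0.81, and also with DESeq2 and with scaling by library size alone. Without R783H A it was -1.56 and called (adjusted p = 0.00541, edgeR). GENCODE places exons of Cerkl and of the antisense gene Gm26755 over those of Neurod1, and Cerkl itself gave 11, 16 and 18 reads (R783H) and 4, 8 and 6 reads (WT), so the counts of Neurod1 are uncertain to that extent.

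The SoxC pair differed. Sox11 (Entrez 20666, chr12:27334268-27342718) measured 9.08, 7.89 and 10.2 CPM (R783H) and 13.7, 14.9 and 15.6 CPM (WT). All R783H libraries were lower. Sox11 fell from 14.7 ± 1.00 to 9.06 ± 1.17 CPM (SD, n = 3 each), with a log2 fold change of -0.70 (SE 0.10; adjusted p = 1.09e-04, edgeR), or 1.62-fold lower with a 95% interval of 1.39 to 1.90. Its longest transcript has 8311 nt, and with the offset for length and GC content the value was -1.02.

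Sox4 (Entrez 20677, chr13:28948919-28953699) measured 9.81, 9.51 and 11.3 CPM (R783H) and 10.98, 9.37 and 10.7 CPM (WT). The groups overlapped. The means were 10.2 ± 0.980 and 10.4 ± 0.866 CPM (SD, n = 3 each), and the log2 fold change of -0.02 (SE 0.10; adjusted p = 0.901, edgeR) had a 95% interval of -0.23 to 0.20. The sign of this value turned to 0.0657 with scaling by library size alone. The antisense gene Gm26735 shares 2616 nt with the Sox4 transcript, and whether the counting used strand is not given in the sources used here.

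Within libraries, the ratio of Sox4 to Sox11 was 1.08, 1.21 and 1.11 (R783H) and 0.804, 0.630 and 0.686 (WT). More reads fell on Sox4 than on Sox11 in each R783H library and fewer in each WT library. This order is one of reads, and the longest transcripts differ in length, with 4795 nt for Sox4 and 8311 nt for Sox11. Per kilobase the mean of Sox4 was the higher in both groups, at 2.13 against 1.09 CPM per kb (R783H) and 2.16 against 1.77 CPM per kb (WT). The ratio averaged 1.13 ± 0.0654 against 0.707 ± 0.0890 (SD, n = 3 each), and an exact two-sided permutation test gave p = 0.10, again the smallest that 3 against 3 allows (0.125 after Benjamini-Hochberg adjustment over 5 such ratios). Sox12, the other SoxC gene, rose from 32.3 ± 3.99 to 40.2 ± 1.64 CPM (SD, n = 3 each), with a log2 fold change of 0.31 (SE 0.08; adjusted p = 0.00584, edgeR).

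Of the microtubule genes, Map2 (Entrez 17756, chr1:66175202-66442583) gave 77, 54 and 79 reads (R783H) and 20, 31 and 30 reads (WT). In CPM it was at 2.56, 1.90 and 2.67 against 0.990, 1.26 and 1.41. R783H B was the lowest of its group and still above every WT library. The mean rose from 1.22 ± 0.211 to 2.38 ± 0.414 CPM (SD, n = 3 each), with a log2 fold change of 0.96 (SE 0.21; adjusted p = 0.00176, edgeR), or 1.94-fold with a 95% interval of 1.42 to 2.66. All 17 alternatives kept its call, with values from 0.72 to 1.07. GENCODE annotates an antisense gene, Gm10558, over its exons.

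Dcx (Entrez 13193, chrX:143855842-143933396) had 0 counts in each of the 6 libraries. With total counts of 20894277 to 29079670 per library, that allows up to 0.0998 to 0.148 CPM, for counting error only. Its relatives differed from it and from each other: Dclk2, a doublecortin-like kinase gene, rose from 19.0 ± 0.659 to 35.9 ± 1.20 CPM (SD, n = 3 each; log2 fold change 0.92, SE 0.06; adjusted p = 3.54e-07, edgeR), whereas Dclk1 had 1 to 6 counts in a library. Over 17 alternatives the log2 fold change of Dclk2 ran from 0.64 to 1.00, always called.

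**Figure D2:**
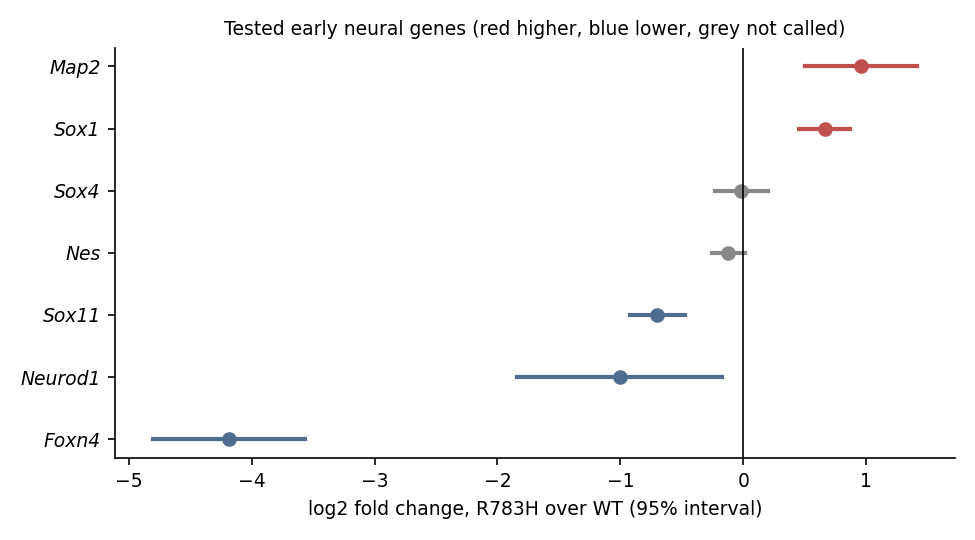
Log2 fold change of R783H over WT (points) with its 95% interval (lines) for the 7 early neural genes with enough reads to be tested. Foxn4 stands apart at -4.18, the intervals of Sox1 and Map2 lie above 0, those of Sox11 and Neurod1 below 0, and those of Nes and Sox4 include 0.

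The groups did not overlap for 6 of the 7 tested genes, all but Sox4, against 68.1% of all genes tested. R783H lay above WT for Sox1 and Map2 (35.0% of all genes) and below it for Nes, Neurod1, Foxn4 and Sox11 (33.1%). Foxn4 and Neurod1 were called and had an estimate at least 2-fold lower, as did 3.17% of all genes. None of the 7 was called with an estimate at least 2-fold higher, against 5.91%. The 2-fold limit itself was not tested. Neurod1 was at its edge, 2.01-fold lower with a 95% interval of 1.13 to 3.59. Its log2 fold change was short of 2-fold in some alternatives, as at -0.93 with library size alone. Compared per kilobase of the longest transcript, the level in WT was highest for Nes, at 3.84 ± 0.0824 CPM per kb, then Sox4 at 2.16 ± 0.181, Sox11 at 1.77 ± 0.121, Sox1 at 1.76 ± 0.108, Foxn4 at 0.921 ± 0.126, Neurod1 at 0.244 ± 0.0411, Map2 at 0.195 ± 0.0338 and Pax6 at 0.0643 ± 0.0283 CPM per kb (SD, n = 3 each). Sox11 and Sox1 were within their spread of each other in WT, as were Neurod1 and Map2. The longest Sox1 transcript in GENCODE, 4832 nt, is longer than the span RefSeq gives the gene. The place of Sox1 in this order therefore depends on the annotation used for length. All 8 were under the median of 7.44 CPM per kb over tested genes with a known length. In R783H, Sox1 moved up to the second place with 2.79 ± 0.263 CPM per kb, above Sox4 at 2.13 ± 0.204 and Sox11 at 1.09 ± 0.140, and Foxn4 moved down to 0.0490 ± 0.0171 CPM per kb, under Map2 at 0.380 ± 0.0662 and Neurod1 at 0.120 ± 0.0654 (SD, n = 3 each).

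**Figure D3:**
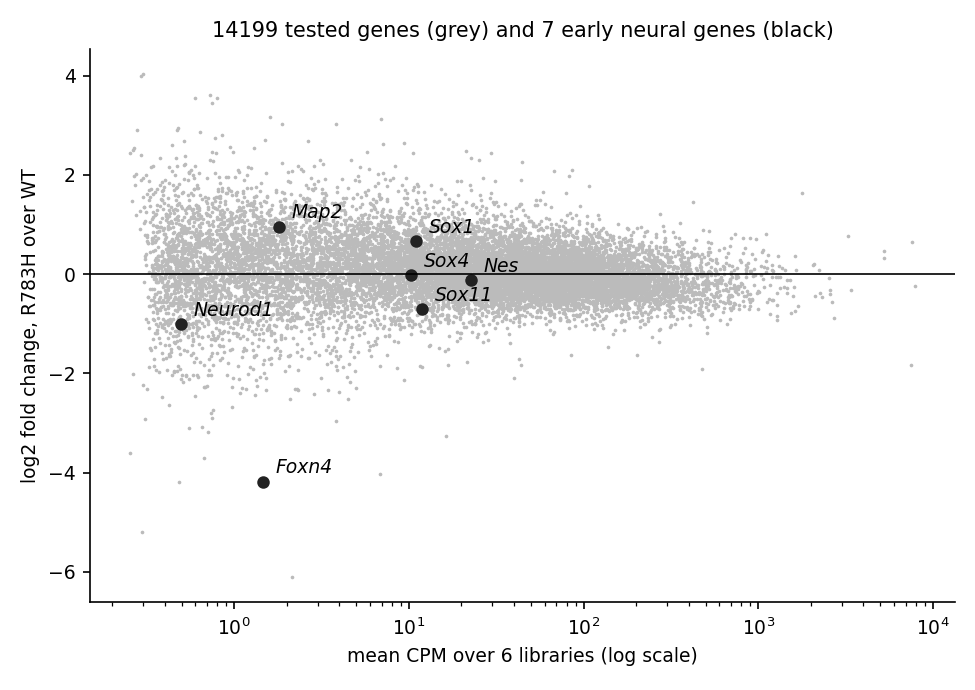
Log2 fold change of R783H over WT against mean CPM (log scale) for the 14199 genes tested (grey), with the 7 tested early neural genes in black. Foxn4, at -4.18, has only 3 genes below it, and the other 6 lie within the cloud.

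The close relatives of the members are a background for these values. Sox2, which like Sox1 belongs to the SoxB1 group and is also a core pluripotency factor, averaged 542 ± 41.1 CPM (R783H) and 536 ± 2.03 CPM (WT; SD, n = 3 each) and was not called (log2 fold change 0.02, SE 0.05; adjusted p = 0.812, edgeR). The ratio of Sox1 to Sox2 went from 0.0159 ± 0.000917 to 0.0248 ± 0.00124 (SD, n = 3 each), without overlap. Sox3, the remaining SoxB1 gene, fell by 0.57 on the log2 scale (SE 0.13; adjusted p = 0.00251, edgeR), and its call was lost at -0.20 once length and GC content were offset. Foxn3, a forkhead relative of Foxn4, rose by 0.56 (SE 0.14; adjusted p = 0.00510, edgeR). Over its 17 alternatives Foxn3 ran from 0.27 to 0.75, always called. Of 16 such relatives, 10 were tested, and 4 rose and 3 fell (median log2 fold change -0.00411).

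Other neural genes were mixed as well. The counts of the relatives and of the lists that follow stand against the same background of 33.5% higher and 30.9% lower among all genes tested. The lists share genes, so their counts are not those of separate sets. Among tested relatives, Sox2, Sox3 and Vim are also counted as progenitor genes and Sox12 as a neurogenic factor. Dclk2, Map4, Mapt and Ina are also counted as neuronal genes. Hes1 is both in the progenitor list and among the genes that hold back neuronal differentiation. Of 34 progenitor genes other than the members 22 were tested, of which 7 rose and 4 fell (median log2 fold change 0.25). Prom1, a membrane protein of progenitors, rose from a mean of 4.06 ± 0.568 CPM to one of 10.1 ± 0.165 CPM (1.31 on the log2 scale, SE 0.11), Meis2, a homeobox factor, from 10.02 ± 0.171 to 21.8 ± 1.09 CPM (1.12, SE 0.07), and Msi1, an RNA-binding protein of neural stem cells, from 19.8 ± 0.850 to 37.2 ± 0.949 CPM (0.91, SE 0.06; SD, n = 3 each). Their adjusted p values by edgeR's quasi-likelihood test were 1.84e-06, 3.10e-07 and 3.39e-07.

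Of 29 neurogenic transcription factors only 8 had enough reads to be tested, of which 4 rose and 3 fell (median 0.06). Neurog2, a proneural factor that acts upstream of Neurod1, had 3 counts in R783H A and none elsewhere. Ebf1, a helix-loop-helix factor, rose by 0.94 (SE 0.18), and Tcf4 and Tcf12, E proteins that pair with proneural factors, rose by 0.76 (SE 0.10) and 0.62 (SE 0.08), with adjusted p values by edgeR's quasi-likelihood test of 8.05e-04, 5.21e-05 and 6.10e-05. Over 17 alternatives Tcf4 ran from 0.42 to 0.86 and Tcf12 from 0.40 to 0.70, always called. Tcf3, the E protein with the highest CPM of the 3 and named after its values were seen, moved the other way, from 196 ± 4.56 to 152 ± 3.66 CPM (SD, n = 3 each; log2 fold change -0.36, SE 0.04; adjusted p = 2.05e-05, edgeR).

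Of 32 neuronal genes 26 were tested, 9 higher and 12 lower, with a median of -0.13. Nefm, a neurofilament subunit, rose from 5.02 ± 0.172 to 14.5 ± 1.64 CPM (SD, n = 3 each; log2 fold change 1.53, SE 0.11; adjusted p = 5.21e-07, edgeR), and the adhesion molecule L1cam rose by 1.21 (SE 0.21; adjusted p = 3.60e-04, edgeR). GENCODE places exons of Nefl, on the opposite strand, over those of Nefm, with a shared stretch of 1108 nt. Nefl itself rose by 0.90 (SE 0.06), so the counts of Nefm are uncertain to that extent. Dpysl2, a microtubule-associated protein of growing axons, changed by -1.25 on the log2 scale (SE 0.15; adjusted p = 2.27e-05, edgeR). Tubb3, the neuronal tubulin, measured 48.8 ± 5.62 CPM (R783H) against 85.0 ± 2.57 CPM (WT; SD, n = 3 each), a log2 fold change of -0.80 (SE 0.07; adjusted p = 3.38e-06, edgeR), so Map2 and Tubb3 moved in opposite directions. Of 7 neuron markers, 2, Rbfox3 and Snap25, had at most 5 counts in a library, Tubb3, Elavl3 and Elavl4 were lower, Stmn2 was higher and Syp was not called. The summed level of the 7 ran from 333 to 369 CPM in R783H and from 335 to 337 CPM in WT, mostly from Stmn2.

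Among 18 genes known to hold back neuronal differentiation, all tested, 11 fell and 4 rose (2 with DESeq2 or without WT B), and the median was -0.19. The repressor Rest, which silences neuronal genes in other cells, measured 193, 159 and 189 CPM (R783H) and 122, 129 and 167 CPM (WT), with overlap between R783H B and WT C. Its log2 fold change was 0.37 (SE 0.11; adjusted p = 0.0103, edgeR), and the call was lost with DESeq2, without WT B and with the length and GC offset, where the value was 0.10. Its co-repressors Rcor2 and Kdm1a changed by -0.98 (SE 0.06; adjusted p = 1.62e-07, edgeR) and by -0.17 (SE 0.05; adjusted p = 0.00756, edgeR), the latter not called with scaling by library size alone. Rcor1, another co-repressor, named after its values were seen, was called higher at 0.18 (SE 0.07; adjusted p = 0.0484, edgeR), a call lost in 9 of 17 alternatives, with values from -0.02 to 0.26. Id3 and Id1, which bind E proteins and block proneural factors, changed by -1.16 (SE 0.05) and -0.87 (SE 0.08), with adjusted p values by edgeR's quasi-likelihood test of 4.46e-08 and 2.58e-06.

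**Figure D4:**
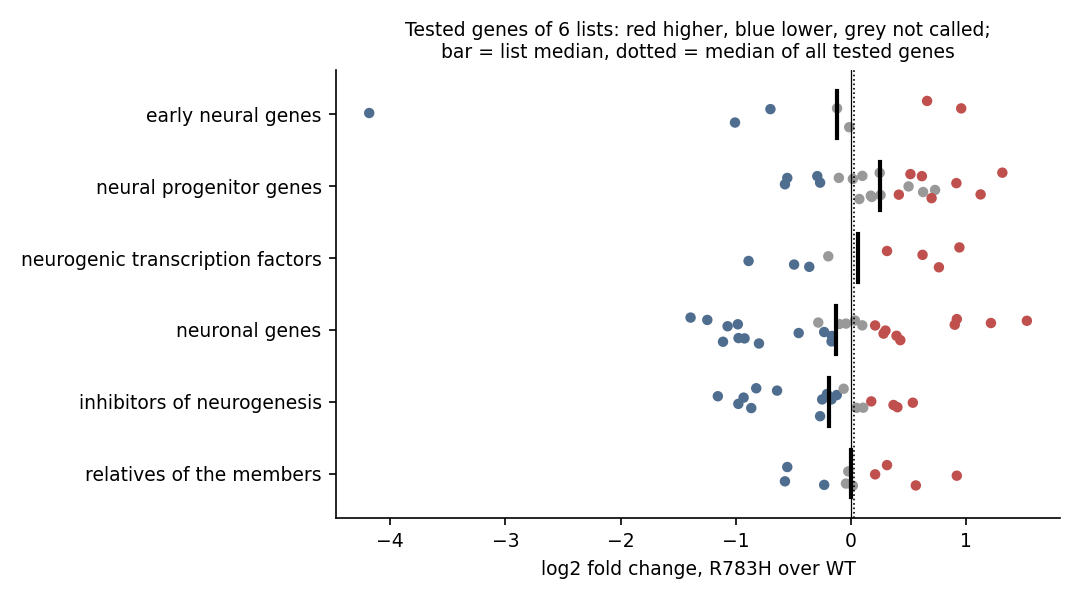
Log2 fold change of R783H over WT for the tested genes of the early neural members and of 5 other lists (points; red higher, blue lower, grey not called), with list medians (bars) and the median of all genes tested (dotted line). Each list holds genes in both directions, and Foxn4 is the leftmost point.

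The markers were those of stem cells in both groups. The 14 pluripotency markers summed to 8800 to 8976 CPM in R783H and to 8997 to 9098 CPM in WT, with 4 higher and 5 lower and a median of -0.00321. Utf1 changed by -0.67 (SE 0.06), Sall4 by -0.36 (SE 0.05) and Zfp42 by -0.36 (SE 0.04), with adjusted p values by edgeR's quasi-likelihood test of at most 5.67e-05. Over its 17 alternatives Utf1 ran from -0.74 to -0.35. The 4 called higher, named after their values were seen, were Fgf4, Dppa5a, Tbx3 and Tfcp2l1. They changed by 0.31 (SE 0.04), 0.30 (SE 0.05), 0.20 (SE 0.04) and 0.17 (SE 0.05), in that order. For these, edgeR's quasi-likelihood test gave adjusted p values of 4.54e-05, 4.72e-04, 0.00207 and 0.0150. Mesoderm and endoderm markers moved with the groups at low levels. The 10 mesoderm markers summed to 9.11 to 10.5 CPM in R783H and to 21.8 to 24.9 CPM in WT, with 5 of 7 tested lower and 0 higher (0 also at an unadjusted p under 0.05 by edgeR and by DESeq2, and 1 higher with the length and GC offset), T at -1.89 (SE 0.10), Evx1 at -1.74 (SE 0.24) and Kdr at -0.39 (SE 0.14; adjusted p values 1.16e-07, 6.95e-05 and 0.0271, edgeR). Kdr was not called under 6 of its 17 alternatives. The 10 endoderm markers summed to 12.4 to 13.02 CPM in R783H and to 6.03 to 8.51 CPM in WT, with 3 of 6 tested higher (5 without WT C) and 0 lower (0 also at an unadjusted p under 0.05 by edgeR and by DESeq2, and 1 without the filter or without R783H A, R783H B, R783H C or WT B), namely Sox17 at 1.29 (SE 0.29) on at most 30 counts in a library, Cxcr4 at 1.19 (SE 0.23) and Gata4 at 1.08 (SE 0.15; adjusted p values 0.00218, 8.22e-04 and 1.01e-04, edgeR). Afp and Cer1 were at 0 in all libraries. The 8 fibroblast markers summed to 40.3 to 46.7 CPM in R783H and to 59.7 to 63.6 CPM in WT, mostly from Fbln1 (log2 fold change -0.50, SE 0.06; adjusted p = 4.03e-05, edgeR), with 2 of 4 tested lower and 0 higher (0 also at an unadjusted p under 0.05 by edgeR and by DESeq2). The part of these cells or states in the changes of the early neural genes was not tested.

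The R783H libraries were the deeper ones, by totals of 27807385 to 29079670 against 20894277 to 25174121 counts, and at equal depth the calls of the 7 genes were the same. Trim71 itself (Entrez 636931, chr9:114511268-114564369) averaged 144 ± 12.8 CPM (R783H) and 140 ± 16.4 CPM (WT; SD, n = 3 each; log2 fold change 0.03, SE 0.08; adjusted p = 0.743, edgeR). Counts per gene do not show the changed residue, so they do not check the labels.

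**Figure D5:**
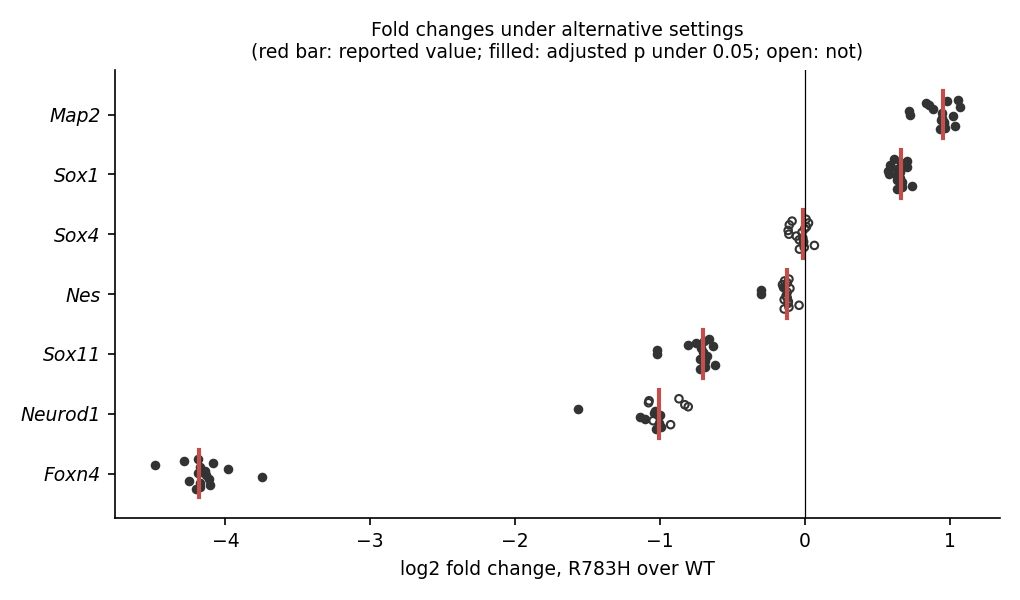
Log2 fold change of R783H over WT of the 7 tested early neural genes as reported (red bars) and under each alternative setting in which the gene was tested (points; filled where the adjusted p was under 0.05, open where not). Foxn4, Sox11, Sox1 and Map2 are filled throughout, Neurod1 and Nes vary, and Sox4 lies on both sides of 0.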

How the data were processed

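The authors deposited 1 table of raw read counts per gene (Entrez identifiers), with 1 column per library, each counted from its own alignment file per the file headers. The submitters' processing notes name CASAVA 1.4, HISAT2, SAMtools and mm10; the counting tool, annotation and strand setting are not given in the sources used here. Symbols came from RefSeq (GRCm38.p6; 25275 identifiers matched) and lengths from GENCODE M21. With R 4.3.3 and edgeR 4.0.16, filterByExpr (minimum count 10, minimum total 15) kept 14199 genes, TMM factors scaled the libraries, and the quasi-likelihood test compared the groups with Benjamini-Hochberg adjustment; a call is an adjusted p under 0.05. SE is the log2 fold change divided by the square root of F. DESeq2 1.42.0 and limma 3.58.1 served as alternatives. On simulated data with 14199 genes, the fit called 94 of 100 genes changed 2-fold, 80 of 100 changed 1.5-fold, and 6 unchanged ones. There the changes went in random directions and all other genes stayed unchanged, whereas 64.5% of genes were called in the real data. The simulation therefore cannot show how scaling or false calls behave when so many genes differ. Libraries held 20894277 to 29079670 counts, so 3 counts equal 0.0998 to 0.148 CPM; intervals from reads cover counting error only.

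The 9 genes and the lists were chosen with earlier results of these data known. Named genes are the 9, Rest, Kdm1a, Tubb3, Sox2, Sox3 and Sox12, and, from each list, at most 3 called genes that changed most among those averaging at least 50 counts in the higher group. Neuron markers were listed as such. Aldh1l1, Evx1, Foxd3, L1cam, Nefm, Prom1 and Sall4, among others, share exon sequence with another gene in GENCODE. Their counts may include reads of that gene. Trim71, Dclk1, Neurog2, Tcf3, Rcor1, Sox17, Gfap, Slc1a3, Nefl, Fgf4, Dppa5a, Tbx3, Tfcp2l1 and genes beside or over a member were named after their values were seen.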

Additional observations from a re-analysis of the deposited data

How the results depend on the processing

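Besides the reported fit, 17 alternatives were run: RLE and upper-quartile factors, library size alone, no filter, at least 10 counts in every library, DESeq2, limma-voom, equal depth, the length and GC offset, the replicate block with and without that offset, and each library left out. The 2 genes called higher, Sox1 and Map2, were called under all 17. The number called lower, reported as 3, was 1 when at least 10 counts were required in every library, since Foxn4 and Neurod1 are then not tested, and 2 to 3 with each library left out. It was 4 without the filter, where Pax6 is tested, and 4 with the offset, where Nes is called. Neurod1 lost its call in 7 of its 16 alternatives, with log2 fold changes from -1.56 to -0.81 with a library left out. Sox4, reported at -0.02, was 0.0657 with library size alone and ran from -0.108 to 0.0251 with a library left out. Sox2, reported at 0.02, was -0.00642 with RLE factors and with DESeq2, and ran from -0.0395 to 0.0539 with a library left out. For the other lists, 325 of 340 counts stayed within 1.5 times the reported one, but 57 of 170 medians moved by more than the spread between libraries. The median changed sign in 3 of the 10 lists under some alternative, those of neurogenic transcription factors (-0.03 to 0.32), relatives of the 9 genes (-0.07 to 0.08) and pluripotency markers (-0.02 to 0.08).

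The letters A, B and C are shared by the groups, but nothing in the labels pairs them. Deviations from the group mean correlated between libraries of the same letter at -0.175 for A, 0.0278 for B and 0.204 for C, and R783H A and B did not correlate best with their own letter. With the replicate block 9260 genes were called in place of 9152, and 2 of the 9 genes were called higher and 3 lower, as without it. Depth limits Foxn4 in R783H, Neurod1, Pax6 and Dcx, whose libraries held 0 to 17 counts.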

Other observations

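Markers of glia and neural crest, which arise from the same early ectoderm as neurons, also moved in both directions. Of 17 such markers 12 were tested, 4 higher and 5 lower, with a median log2 fold change of 0.30. Aldh1l1, a folate enzyme used as an astrocyte marker, averaged 28.2 ± 2.38 CPM in WT and 79.0 ± 7.72 CPM in R783H (a rise of 1.48 on the log2 scale, SE 0.08), and Twist1, a factor of mesenchyme and crest, from 2.71 ± 0.589 to 5.48 ± 0.917 CPM (1.02, SE 0.18; SD, n = 3 each). Foxd3, a factor of both pluripotent cells and neural crest, fell from 67.4 ± 4.16 to 34.3 ± 1.85 CPM (log2 fold change -0.97, SE 0.06; SD, n = 3 each). Their adjusted p values by edgeR's quasi-likelihood test were 1.24e-07, 3.92e-04 and 3.15e-07. The astrocyte markers S100b and Aqp4 had at most 2 counts in a library. Gfap and Slc1a3, other astrocyte markers named after their values were seen, moved the other way from Aldh1l1. Gfap changed by -0.91 (SE 0.37; adjusted p = 0.0497, edgeR) on at most 13 counts in a library. Slc1a3 changed by -0.62 (SE 0.11; adjusted p = 4.79e-04, edgeR). The number called lower fell to 3 without R783H A, WT A or WT B, and to 2 with at least 10 counts in every library.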
